A study of Homo sapiens with 12 samples.

Results

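The genes described here are those of the human proteasome, with its activators, its inhibitor and the chaperones that assemble it. They were taken as every protein-coding gene whose symbol is PSMA, PSMB, PSMC, PSMD, PSME or PSMG followed by a number, or PSMF1. The rule found 50 gene identifiers among 57736 genes, 20314 of them protein coding. These are 48 symbols, since PSMA1 and PSMA2 each have a second identifier on the same locus whose regions overlap those of the main identifier, and for each symbol the identifier with more counts was used. PSMA8, a testis form of an alpha subunit, had 0 counts in all 12 libraries, and PSMB11, a subunit of the thymus, had 1 count in all of them together. The floor of 3 counts was 0.82 to 1.68 CPM (counts scaled to a common library total) per library and covers counting error only. The other 46 genes passed the filter on low counts in every comparison and are called the members tested.

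The libraries came from HepG2 cells, a line of human liver cancer, and Ls174 cells, a line of human colon cancer, each of genotype WT and kept in DMEM with fetal bovine serum and antibiotics. HepG2 HME and Ls174 HME cells received an extract of the red alga Hypnea musciformis (HME) for 24 h, at 0.7 mg/ml by the labels (the study's methods give a slightly higher concentration), and HepG2 control and Ls174 control cells received no treatment for the same time, with no vehicle named in the labels. Each of the 4 groups holds 3 biological replicates by the study's methods, and each line is a single cell line, so that a difference between them is a difference between these lines and not between liver and colon. These are bulk samples, in which fewer cells of a kind and less RNA per cell cannot be told apart.

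The proteasome degrades proteins that carry ubiquitin chains. Its core, the 20S particle, is a barrel of alpha rings, which form the gate, and beta rings, of which PSMB5, PSMB6 and PSMB7 hold the chymotrypsin-like, caspase-like and trypsin-like active sites. Interferon gamma induces PSMB8, PSMB9 and PSMB10, which replace these in the immunoproteasome, together with PSME1 and PSME2, which form the PA28 activator. The 19S cap recognises ubiquitin chains, unfolds the substrate with its ATPases and removes the ubiquitin. When proteasome activity falls, the transcription factor NFE2L1, released by the protease DDI2, raises the genes of core and cap together.

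The libraries held 1790841 to 3656662 counts. Reads of a 3′ library mark the ends of transcripts, and the deposited counts are given per 3′ region. The largest region of each of 46 genes lay in the 3′ UTR of GENCODE, in 29 of them with part of the coding exon, and PSMB3 was not in the annotation used. Hepatocyte markers (all 7 detected) summed to 10522 to 18838 CPM in HepG2 libraries and to 0 to 119 CPM in Ls174 libraries, with the highest Ls174 sum in control 3. Of the colon markers, CDX1 and CDX2 stood at 76.8 to 207 and 32.0 to 98.3 CPM in Ls174 cells and at no more than 1.25 CPM in HepG2 cells, and TFF3 at 70.7 to 102 CPM in Ls174 and 9.54 to 20.6 CPM in HepG2 cells. CEACAM5, MUC2 and KRT20 were at most 6.05 CPM in Ls174 cells, and VIL1 went the other way, with 52.9 to 188 CPM in HepG2 and 42.3 to 79.2 CPM in Ls174 cells. HepG2 HME 2 held 551 CPM of COL1A1 and 408 CPM of COL1A2, collagen genes at no more than 6.06 CPM in every other library, whereas the other fibroblast markers in it, COL3A1, DCN and LUM, were at 1.77, 0 and 0 CPM. The 5 blood cell markers summed to 199 to 722 CPM in HepG2 and 0.49 to 5.89 CPM in Ls174 libraries. In HepG2 cells this was LYZ, at 90.9 to 552 CPM, and CD74, at 108 to 171 CPM, and PTPRC and CD3E were at 0 in all libraries. The part of these markers in the results was not tested.

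HepG2 control 2 and Ls174 control 1 stood apart from the other controls of their lines. Among the 46 members tested, HepG2 control 2 was the highest HepG2 control for 23 and the lowest for 19, and it was more than 2-fold away from the mean of the other controls for 20. It was thus highest or lowest for 91.3% of the members, against 84.7% of all genes tested, and over 2-fold away for 43.5%, against 35.3%. Ls174 control 1 was the highest control for 24 members and the lowest for 18, and more than 2-fold away for 5. These are 91.3% of the members at the highest or lowest place, against 89.1% of all genes tested, and 10.9% over 2-fold away, against 33.0%. Both libraries also held fewer counts upstream of the main 3′ end. Counts outside the largest region of each gene made up 5.41% of the members' counts in HepG2 control 2 and 4.66% in Ls174 control 1, against 7.96 to 10.2% in the other libraries. Of 14 members with a further region of at least 5% of their counts, 12 had the smallest share there in HepG2 control 2 among the 6 HepG2 libraries, and 13 in Ls174 control 1 among the Ls174 libraries, with PSMB9 tied at 0 there. For PSMA3, an alpha subunit, these regions held 10.99% of the counts in HepG2 control 2 and 20.1% in Ls174 control 1, against 36.8 to 53.6% elsewhere. The part of this in the results was not tested.

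**Figure D1:**
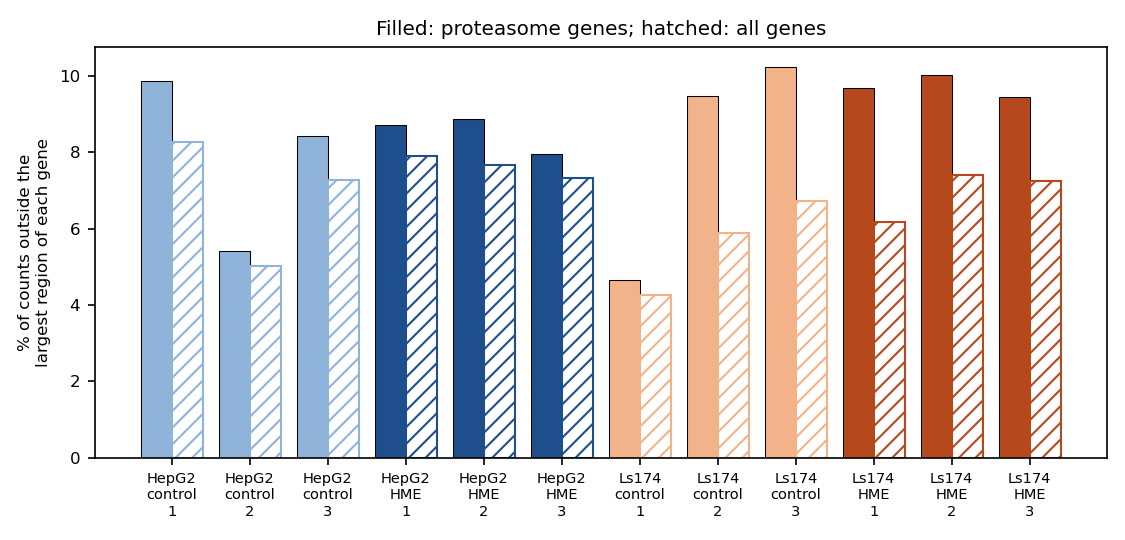
Percent of the counts that fell outside the largest 3′ region of each gene, for the proteasome genes (filled bars) and for all genes (hatched bars), in each of the 12 libraries. HepG2 control 2 (5.41% for the proteasome genes) and Ls174 control 1 (4.66%) have the lowest filled and the lowest hatched bars.

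In HepG2 cells, the only member that passed the study's thresholds with HME was PSME2, the beta subunit of the PA28 activator, which was lower. The study's thresholds were an unadjusted p below 0.05 together with a log2 change larger than 0.58 in size. By these, 1 of the 46 members tested was called, against 22.2% of the 11343 genes tested. An unadjusted p under 0.05 was found for 1 of 46 members, against 2517 of 11343 genes tested. No member had an adjusted p under 0.05 in edgeR, against 3.31% of all genes. DESeq2 and edgeR's exact test each gave 1 member at an adjusted p under 0.05, which is 2.17% of the members, against 9.11% and 10.04% of all genes by these tools. The HME and control groups did not overlap for 6 members (3 higher, 3 lower), which is 13.0%, against 30.8% of all genes. The median log2 fold change of the members was -0.05 and that of all genes tested -0.04. The 95% confidence interval of the fold change lay within -1 and 1 on the log2 scale for 11 of the 46 members, and for the rest it reached beyond a change of this size.

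At the study's thresholds, 4 members rose and none fell in Ls174 cells. These were PSMB5, the beta subunit with the chymotrypsin-like site, PSMA1 and PSMA6, which belong to the alpha ring, and PSMD13, a subunit of the lid of the 19S cap. They are 4 of 46 members, against 12% of the 11319 genes tested in either direction and 4.11% in the upward direction. An unadjusted p under 0.05 was found for 5 of 46 members, against 1534 of 11319 genes tested. No member had an adjusted p under 0.05 in edgeR, against 1.18% of all genes. DESeq2 gave 2 members (4.35%, against 3.83% of all genes) and the exact test 0 (against 4.19%). The groups did not overlap for 15 members, 14 of them higher with HME, which is 32.6%, against 23.9% of all genes. The median log2 fold change was 0.20 for the members and 0.00 for all genes tested, with 33 members above 0 and 13 below. The confidence interval lay within -1 and 1 for 31 members. Without Ls174 control 1 the log2 fold changes of PSMB5, PSMA1, PSMA6 and PSMD13 all lay under the limit of 0.58, 4 other members passed the thresholds (PSMB7, PSMD8, PSMC3 and PSMG4), and 5 members had an adjusted p under 0.05 (PSMB7, PSMD8, PSMC1, PSMB5 and PSMA1). These are 8.70% and 10.9% of the members, against 15.6% and 8.39% of all genes in that fit.

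**Figure D2:**
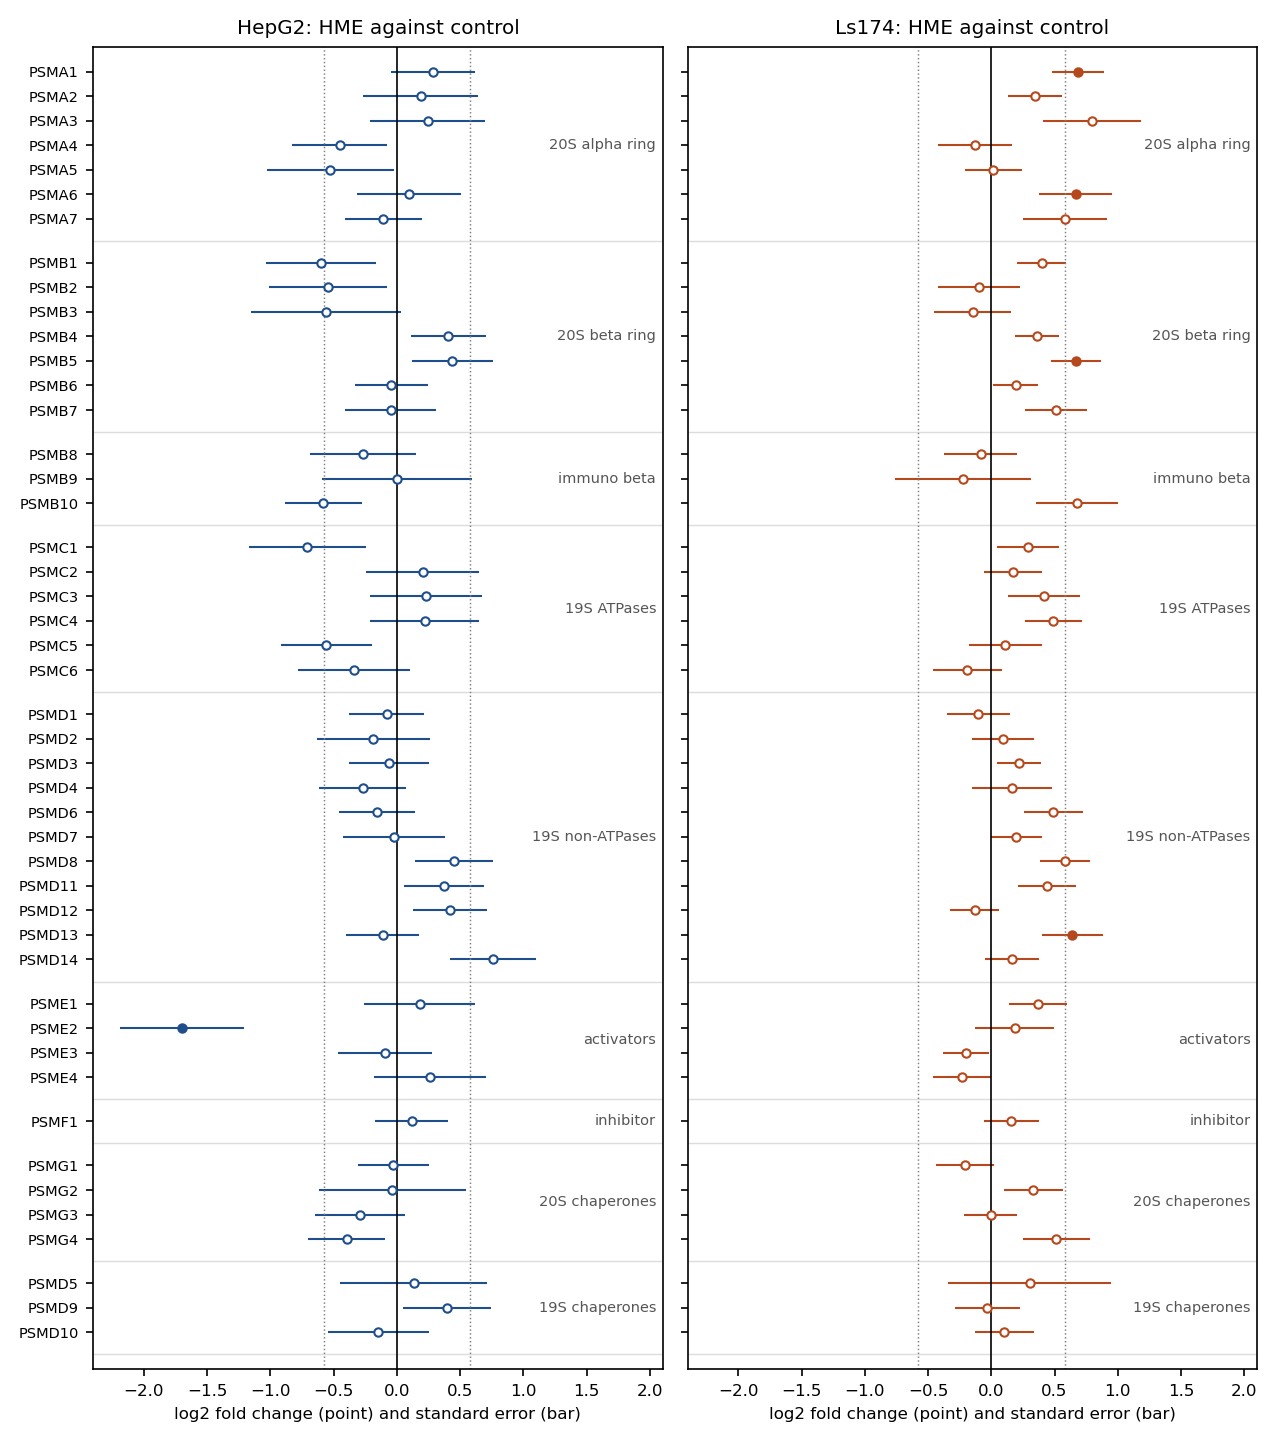
Log2 fold change of HME against control (points) with its standard error (bars) for the 46 members tested, grouped by role, in HepG2 (left) and Ls174 cells (right). Filled points passed the study's thresholds and dotted lines mark the fold limit of 0.58. PSME2 is the filled point at -1.70 in HepG2 cells, and the 4 filled points in Ls174 cells lie between 0.64 and 0.68.

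PSME2 had 368, 1128 and 425 CPM in the 3 HepG2 control libraries and 274, 182 and 134 CPM in the HepG2 HME libraries. Every HME library lay below every control library, and control 2 was the highest by far. The log2 fold change was -1.70 ± 0.49 (SE), or 3.25-fold lower, with a p of 0.00642 and an adjusted p of 0.0904. It passed the study's thresholds in all 6 fits that leave out 1 library. Without HepG2 control 2, the fall was less steep, with a log2 fold change of -0.99 ± 0.30, a p of 0.00856 and an adjusted p of 0.0754. In Ls174 cells PSME2 had 253, 132 and 127 CPM in control and 147, 210.4 and 222 CPM in HME libraries, where the groups overlapped and the log2 fold change was 0.18 ± 0.31.

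PSME2 reads came from a region on the minus strand of chromosome 14 at 24612377 to 24612880 (GRCh37), which covers the 3′ UTR and coding exon and held 89.6% of its counts. Its promoter is shown because PSME2 is the member called in HepG2 cells, with the 250 bases before the RefSeq start (GRCh38.p14, chr14:24146611-24146860, minus strand). Capitals mark TGANNNNGC, the core of the antioxidant response element to which NFE2L1 and its relatives bind, at position -175 from the start, and GAAANNGAA, the core of the interferon-stimulated response element, at position -28.
PSME2: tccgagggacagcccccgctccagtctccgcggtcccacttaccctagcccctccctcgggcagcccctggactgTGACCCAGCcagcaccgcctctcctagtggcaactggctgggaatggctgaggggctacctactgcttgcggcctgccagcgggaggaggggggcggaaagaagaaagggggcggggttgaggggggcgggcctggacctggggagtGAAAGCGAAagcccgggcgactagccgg

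Of the other activators, none passed the thresholds with all libraries. PSME1, the alpha subunit of PA28, had 215, 71.0 and 250.4 CPM in HepG2 control and 218, 185 and 207 CPM in HepG2 HME libraries, with a log2 fold change of 0.18 ± 0.44. PSME1 was thus low in the same control library in which PSME2 was high. A share of 90.6% of the counts of PSME1 lies in a region that overlaps EMC9 on the opposite strand. PSME3, the nuclear PA28 gamma, had a log2 fold change of -0.09 ± 0.37 in HepG2 and -0.20 ± 0.18 in Ls174 cells.

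PSME4, the PA200 activator, had 130.4, 369.5 and 121 CPM in HepG2 control and 245, 254 and 244 CPM in HepG2 HME libraries. The HME libraries lay close together, above controls 1 and 3 and below control 2. With all libraries the log2 fold change was 0.26 ± 0.44 and the p was 0.571. Without HepG2 control 2, PSME4 was the only member with an adjusted p under 0.05, at 0.0293, with a log2 fold change of 0.99 ± 0.22, and 7.74% of all genes had one in that fit. The call for PSME4 therefore rests on whether that library is used. In that fit PSMD8, a subunit of the lid (0.65 ± 0.23), and PSMD9, a chaperone of the 19S base (0.76 ± 0.24), also passed the study's thresholds upward.

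PSMB5 had 321, 409.9 and 391 CPM in Ls174 control and 674, 540.0 and 573 CPM in Ls174 HME libraries. The groups did not overlap. The log2 fold change was 0.67 ± 0.20, with a p of 0.00893 and an adjusted p of 0.195. Without Ls174 control 1 it was 0.57 ± 0.17, just under the fold limit, with an adjusted p of 0.0475. In HepG2 cells PSMB5 had 606, 623 and 863 CPM in control and 1089.6, 952 and 794 CPM in HME libraries, a log2 fold change of 0.44 ± 0.32 with overlapping groups. Of its counts, 98.8% came from chromosome 14, 23494863 to 23495584 (GRCh37, minus strand, 3′ UTR and coding exon).

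PSMA1 had 154, 211 and 217 CPM in Ls174 control and 290.3, 336 and 309.9 CPM in Ls174 HME libraries, again without overlap. The log2 fold change was 0.68 ± 0.21, with a p of 0.00953 and an adjusted p of 0.202. Without Ls174 control 1 it was 0.54 ± 0.16, under the fold limit, with an adjusted p of 0.0495. PSMB5 and PSMA1 thus had smaller changes but lower adjusted p values in that fit. In HepG2 cells PSMA1 had a log2 fold change of 0.29 ± 0.33. Its main region lies on chromosome 11 at 14526223 to 14526794 (minus strand, 3′ UTR and coding exon) and overlaps that of its second identifier.

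The promoters of PSMB5 and PSMA1 are shown because these members had the lowest p values in Ls174 cells (RefSeq, GRCh38.p14, 250 bases before the start, chr14:23035221-23035470 and chr11:14520387-14520636, both on the minus strand). Capitals mark TGANNNNGC on either strand, at positions -133 and -106 of PSMB5. PSMA1 held none of the marked motifs in this window.
PSMB5: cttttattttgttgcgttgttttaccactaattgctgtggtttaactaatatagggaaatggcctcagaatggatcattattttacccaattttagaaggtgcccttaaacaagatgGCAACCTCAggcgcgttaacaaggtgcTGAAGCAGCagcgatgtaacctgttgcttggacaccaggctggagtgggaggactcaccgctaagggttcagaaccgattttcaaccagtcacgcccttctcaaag
PSMA1: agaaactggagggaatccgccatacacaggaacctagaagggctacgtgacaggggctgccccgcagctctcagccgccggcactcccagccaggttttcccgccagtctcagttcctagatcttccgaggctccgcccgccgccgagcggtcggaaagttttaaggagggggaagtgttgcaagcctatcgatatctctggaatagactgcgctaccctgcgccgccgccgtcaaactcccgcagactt

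PSMA6 had 62.6, 116 and 120.1 CPM in Ls174 control and 123, 187 and 166 CPM in Ls174 HME libraries. The gap between the highest control and the lowest HME library was small. The log2 fold change was 0.67 ± 0.29, with a p of 0.0482 and an adjusted p of 0.367. It passed the thresholds in 2 of 6 fits that leave out 1 library, and without Ls174 control 1 the log2 fold change was 0.43 ± 0.19. With the largest region of each gene only, it was 0.53 with a p of 0.064. A share of 99.6% of its counts is also counted for KIAA0391 on the same strand, so that reads of these genes cannot be told apart.

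PSMD13 had 98.5, 131 and 168 CPM in Ls174 control and 178, 238 and 204 CPM in Ls174 HME libraries. The groups did not overlap, and both were spread. The log2 fold change was 0.64 ± 0.24, with a p of 0.0277 and an adjusted p of 0.307, and it passed the thresholds in 2 of 6 fits that leave out 1 library. Without Ls174 control 1 it was 0.47 ± 0.18, with an adjusted p of 0.129. In HepG2 cells it was -0.11 ± 0.29.

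**Figure D3:**
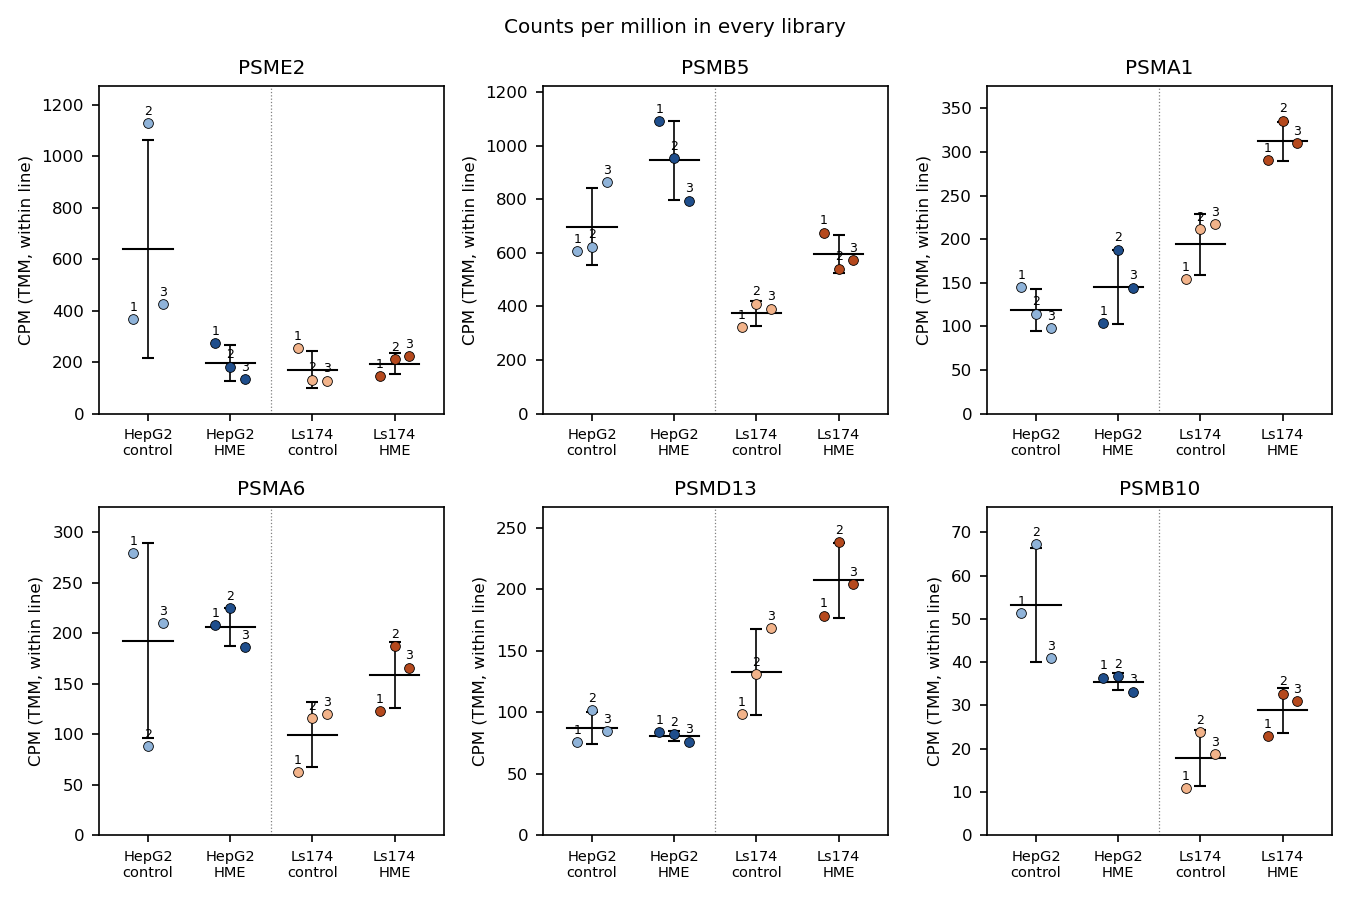
CPM (scaled by TMM within each line) of PSME2, PSMB5, PSMA1, PSMA6, PSMD13 and PSMB10 in every library, with the replicate number at each point, the mean (line) and the SD (bar, n = 3). The 3 Ls174 HME libraries lie above the 3 Ls174 controls for PSMB5, PSMA1, PSMA6 and PSMD13, and the 3 HepG2 HME libraries below the 3 HepG2 controls for PSME2 and PSMB10.

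Of the other catalytic subunits, PSMB6 had 252, 269 and 234 CPM in HepG2 control and 281, 228 and 224 CPM in HepG2 HME libraries, a log2 fold change of -0.04 ± 0.29. In Ls174 cells it had 341, 321 and 302 CPM in control and 342, 376 and 382 CPM in HME libraries, a log2 fold change of 0.19 ± 0.18. The groups of PSMB6 overlapped in HepG2 cells and were barely apart in Ls174 cells. PSMB7 had 183, 404 and 268 CPM in HepG2 control and 311, 281 and 233 CPM in HepG2 HME libraries, a log2 fold change of -0.05 ± 0.36. In Ls174 cells PSMB7 had 304, 184 and 203 CPM in control and 271, 346 and 363 CPM in HME libraries, a log2 fold change of 0.51 ± 0.25 with a p of 0.0704. Control 1 was the highest Ls174 control of PSMB7, and without it the log2 fold change was 0.76 ± 0.18 with an adjusted p of 0.014. A share of 97.4% of the counts of PSMB7 overlaps NEK6 on the opposite strand.

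PSMB10, which replaces PSMB7 in the immunoproteasome, had 51.3, 67.3 and 40.9 CPM in HepG2 control and 36.4, 36.7 and 33.1 CPM in HepG2 HME libraries. In Ls174 cells it had 10.9, 23.7 and 18.8 CPM in control and 22.8, 32.7 and 31.0 CPM in HME libraries. The HepG2 groups did not overlap and the Ls174 groups overlapped, and the direction was downward in HepG2 and upward in Ls174 cells. Neither change passed the thresholds, with log2 fold changes of -0.58 ± 0.31 (p of 0.0882) and 0.68 ± 0.33 (p of 0.07). A share of 98.9% of its counts lies in regions also counted for CTC-479C5.12 on the same strand.

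The promoter of PSMB10 is shown beside that of PSME2 because these genes had the lowest p values for a difference between the lines (RefSeq, GRCh38.p14, chr16:67936851-67937100, minus strand). Capitals mark GAAANNGAA at position -21 from the start.
PSMB10: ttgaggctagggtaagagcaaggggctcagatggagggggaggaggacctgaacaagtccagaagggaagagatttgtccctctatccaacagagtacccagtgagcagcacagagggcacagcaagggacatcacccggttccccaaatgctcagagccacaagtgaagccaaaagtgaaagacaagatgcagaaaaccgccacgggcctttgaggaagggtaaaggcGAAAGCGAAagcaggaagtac

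RefSeq promoters were matched for 42 of the 48 members, and all windows of a gene were searched on both strands. GAAANNGAA was present in 5 of the 42 (11.9%) and in 8.41% of all 27305 genes with a promoter. TTCNNNGAA, the gamma-activated site, was present in 7 (16.7%) against 8.09%. TGANNNNGC was present in 25 (59.5%) against 40.3%. Of other promoter motifs, CCAAT, the CCAAT box, was present in 19 (45.2%) against 37.0%, and CCGGAAGT, an ETS site, in 6 (14.3%) against 4.13%. Overlaps between matches of different motifs were not removed, and a match is a description of letters only.

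The immunoproteasome subunits PSMB8 and PSMB9 had few counts. PSMB8, the counterpart of PSMB5, had 9.88, 7.34 and 17.8 CPM in HepG2 control and 9.93, 10.8 and 8.43 CPM in HepG2 HME libraries, and in Ls174 cells 13.1, 16.4 and 18.2 CPM in control and 13.0, 16.5 and 15.7 CPM in HME libraries. PSMB9, the counterpart of PSMB6, had 5.06, 4.89 and 5.44 CPM in HepG2 control and 5.88, 5.90 and 3.37 CPM in HepG2 HME libraries, and in Ls174 cells 6.53, 2.34 and 6.35 CPM in control and 5.12, 3.85 and 3.91 CPM in HME libraries. These PSMB9 levels rest on 6 to 23 counts per library, and the groups of both genes overlapped in both lines. The log2 fold changes of PSMB9 were 0.00 ± 0.59 and -0.23 ± 0.54, and a change of up to 1.33 on the log2 scale in HepG2 cells was within the confidence interval.

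**Figure D4:**
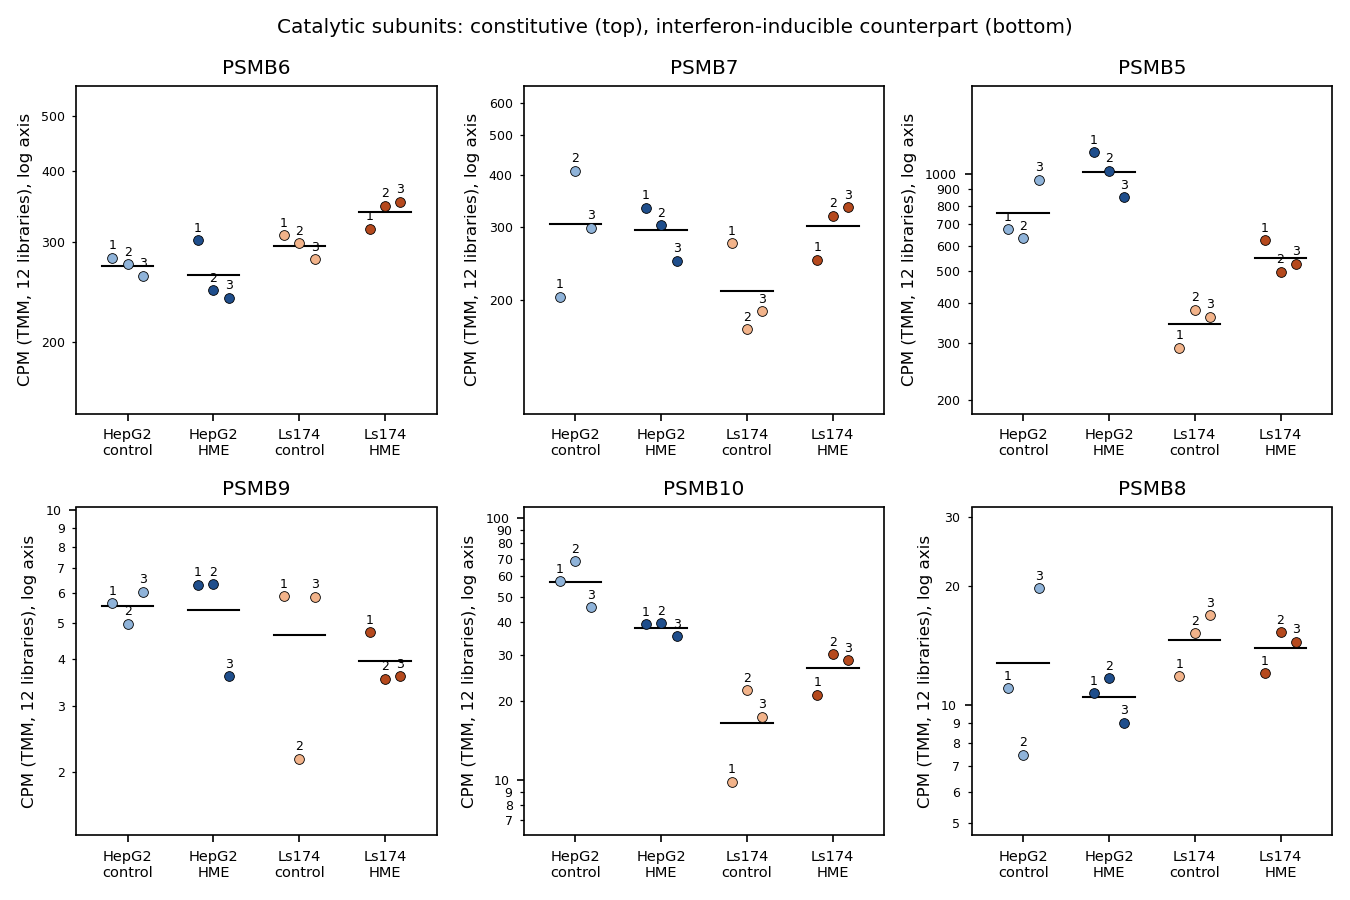
CPM (scaled by TMM over all 12 libraries, log axis) of the constitutive catalytic subunits PSMB6, PSMB7 and PSMB5 (top) and of the interferon-inducible subunits that replace them, PSMB9, PSMB10 and PSMB8 (bottom), with replicate numbers and group means (lines). PSMB5 and PSMB10 lie higher in every HepG2 control than in every Ls174 control, and PSMB8 and PSMB9 overlap between control and HME within each line.

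By role, the alpha ring had 2 of 7 members tested called upward in Ls174 cells and a median log2 fold change of 0.58, and the constitutive beta ring had 1 of 7 and a median of 0.36. Of all genes tested, 4.11% were called upward, and their median was -0.003. The members called here, PSMA1, PSMA6 and PSMB5, all lay under the fold limit without Ls174 control 1. Of the alpha ring, PSMA3 had the largest log2 fold change, 0.80 ± 0.39 with a p of 0.0722, and PSMA4 (-0.13 ± 0.29) and PSMA5 (0.02 ± 0.23) stood near 0. PSMA3 had 94.7, 309.6 and 266 CPM in Ls174 control and 419.9, 420.4 and 327 CPM in HME libraries, with control 1 far below the others, and without that library the log2 fold change was 0.44 ± 0.18. Of the beta ring, PSMB1 (0.40 ± 0.19) and PSMB4 (0.36 ± 0.18), both structural, did not pass, and their groups did not overlap. In HepG2 cells the medians of the alpha and beta rings were 0.10 and -0.05, with no member called.

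The 6 ATPases of the 19S base, which unfold substrates, had a median of 0.23 in Ls174 and -0.07 in HepG2 cells with none called. PSMC1 had 47.0, 168 and 64.5 CPM in HepG2 control and 61.8, 57.0 and 50.6 CPM in HepG2 HME libraries, and its log2 fold change was -0.71 ± 0.46 with control 2 and 0.04 ± 0.24 without it. Its pseudogene PSMC1P1 was counted with 308, 811 and 281 reads in these controls, and how the counting split reads between them is not given in the sources used here. Without Ls174 control 1, PSMC1 had a log2 fold change of 0.57 ± 0.16 and an adjusted p of 0.0379 in Ls174 cells.

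The 11 non-ATPases had medians of 0.20 in Ls174 and -0.06 in HepG2 cells. Besides PSMD13, PSMD8 was just outside the call in Ls174 cells, with a p of 0.0179 and a log2 fold change of 0.579 ± 0.198 against the limit of 0.58. Its levels were 166, 125 and 161 CPM in control and 202, 240.0 and 233 CPM in HME libraries. The groups did not overlap, and without control 1 the log2 fold change was 0.66 ± 0.17 with an adjusted p of 0.03. PSMD14, the deubiquitinase of the lid, had 57.1, 28.8 and 49.6 CPM in HepG2 control and 81.6, 84.8 and 64.0 CPM in HepG2 HME libraries, without overlap, a log2 fold change of 0.76 ± 0.34 and a p of 0.051.

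The 4 chaperones of the core (PSMG1 to PSMG4) had medians of -0.17 in HepG2 and 0.16 in Ls174 cells, and the 3 of the cap (PSMD5, PSMD9 and PSMD10) of 0.13 and 0.10, with none called. PSMF1, an inhibitor of the core, had log2 fold changes of 0.12 ± 0.29 and 0.16 ± 0.22. Replicate spread differed between groups. The median coefficient of variation over the 46 members was 39.0% among HepG2 controls and 24.2% among Ls174 controls. With HME it was 15.1% and 14.2%.

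Summed over genes, the core and the cap moved as follows, given as a description without a test. On a scale common to the 12 libraries, the alpha ring summed to 957, 1390.0 and 1379 CPM in Ls174 control and to 1678, 1952 and 1666 CPM in Ls174 HME libraries. The beta ring summed to 2347, 2054 and 2013 CPM in Ls174 control and to 2758, 2752 and 2796 CPM in Ls174 HME libraries. Neither sum overlapped between the Ls174 groups. The 17 genes of the cap summed to 2386, 1775 and 2028 CPM in Ls174 control and to 2190.1, 2561 and 2511 CPM in Ls174 HME libraries. These overlap through control 1, and controls 2 and 3 lay below every HME library, so that a contrast of core and cap in overlap rests on that control.

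In HepG2 cells the cap summed to 1946, 2789.5 and 2253 CPM in control and to 2328, 2398 and 1943 CPM in HME libraries, and the sums of the alpha ring and the beta ring overlapped likewise. The activators summed to 938, 1666 and 1069 CPM in HepG2 control and to 906, 773 and 768 CPM in HepG2 HME libraries, without overlap and with PSME2 as the member that was called. Control 2 had the highest sum, and controls 1 and 3 also lay above every HME library. The fall of this sum rests on PSME2, whose mean went from 678 CPM in HepG2 control to 212 CPM in HME libraries. The means of PSME1 and PSME4 rose, from 197 to 218 CPM and from 219 to 266 CPM. The mean of PSME3 went from 130 to 120 CPM. The ratio of the sum of the alpha and beta rings to that of the cap was 2.14, 1.82 and 1.79 in HepG2 control and 1.88, 1.86 and 1.92 in HepG2 HME libraries. In Ls174 cells this ratio was 1.38, 1.94 and 1.67 in control and 2.03, 1.84 and 1.78 in HME libraries. The groups overlapped in both lines, and Ls174 control 1 had the lowest ratio of all 12 libraries.

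**Figure D5:**
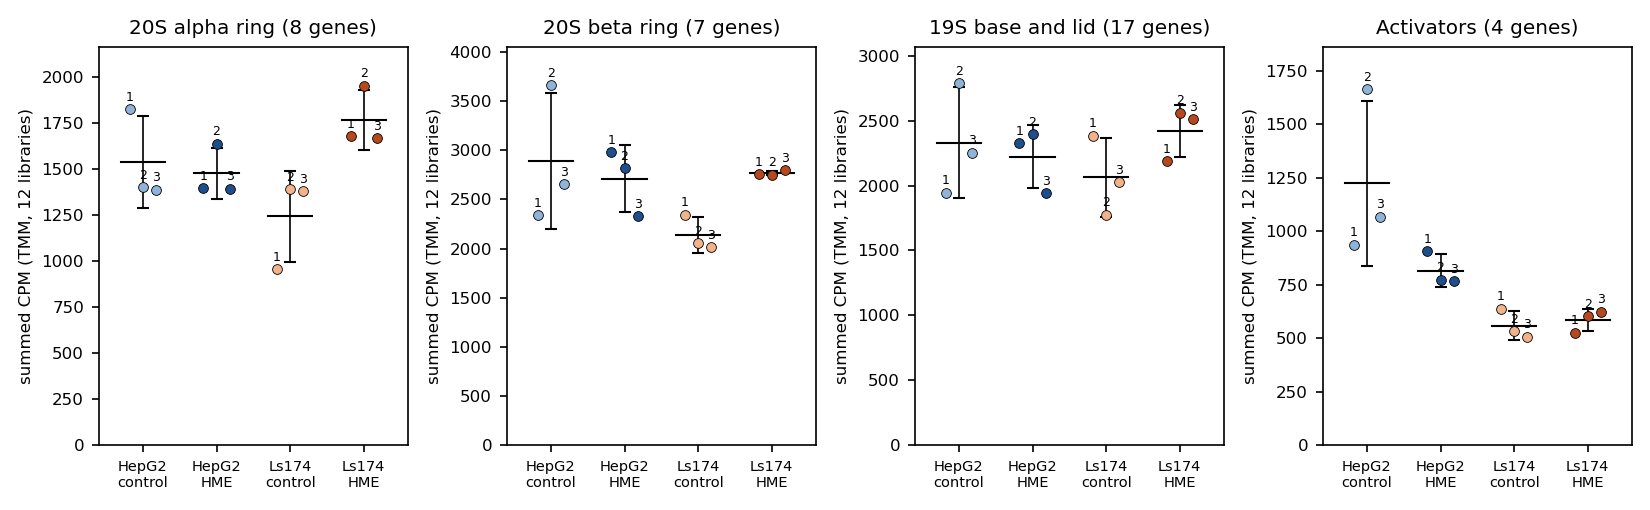
Summed CPM (scaled by TMM over all 12 libraries) of the alpha ring, the constitutive beta ring, the 19S base and lid and the activators in every library, with replicate numbers, means (lines) and SD (bars, n = 3). Ls174 HME libraries lie above Ls174 controls for the alpha ring (1666 to 1952 against 957 to 1390.0 CPM) and the beta ring. HepG2 HME libraries lie below HepG2 controls for the activators, a fall that rests on PSME2.

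Whether a change with HME differed between the lines was tested as the interaction of cell line and treatment, which uses the same libraries as the comparisons above. With the change in HepG2 cells minus that in Ls174 cells, 3 of 46 members passed the study's thresholds, against 13.2% of the 13040 genes tested. An unadjusted p under 0.05 was found for 3 of 46 members, against 1718 of 13040 genes tested. No member had an adjusted p under 0.05 in edgeR, against 0.644% of all genes, and DESeq2 gave 0 (against 2.91%). The members past the study's thresholds were PSME2 (-1.87 ± 0.59, p of 0.00693, adjusted p of 0.186), PSMB10 (-1.26 ± 0.44, p of 0.0121, adjusted p of 0.23) and PSMG4 (-0.94 ± 0.40, p of 0.0344, adjusted p of 0.326). PSME2 and PSMB10 passed in all 12 fits that leave out 1 library, and PSMG4, a chaperone of the core, in 4. With HepG2 control 2 and Ls174 control 1 both left out, PSME2 had -1.65 ± 0.39 and an adjusted p of 0.0356, PSMB10 -0.90 ± 0.33 and 0.157, and PSMG4 -1.18 ± 0.33 and 0.0707. PSMB5, PSMA1, PSMA6 and PSMD13, the members called in Ls174 cells, had interaction estimates with a p above 0.05. PSMD13 passed the thresholds in 5 of 8 alternatives, DESeq2 among them, and in 3 of 12 fits that leave out 1 library, and PSMA6 passed without HepG2 control 2 and without both outlying controls.

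The levels of the members in untreated cells were compared between the lines with the same control libraries. Of 46 members, 10 passed the study's thresholds, 7 of them higher in HepG2 cells, against 35.0% of the 11907 genes tested, and 5 had an adjusted p under 0.05, against 23.5%. PSME2 was higher in HepG2 control cells by 2.17 ± 0.52 on the log2 scale (adjusted p of 0.0153) and PSMB10 by 1.82 ± 0.40 (adjusted p of 0.00935). On the common scale PSMB10 had 57.3, 68.5 and 45.7 CPM in HepG2 control and 9.84, 22.04 and 17.4 CPM in Ls174 control libraries. PSMB5 was higher in HepG2 control cells by 1.17 ± 0.34 (adjusted p of 0.0355) and PSMF1 by 1.05 ± 0.33 (adjusted p of 0.046). PSMG1 was lower by -1.03 ± 0.33 (adjusted p of 0.0493), with 89.0, 69.8 and 88.9 CPM in HepG2 and 224, 158 and 137 CPM in Ls174 control libraries. With both outlying controls left out, 16 members (34.8%, against 43.98% of all genes in that fit) had an adjusted p under 0.05, and PSME2 (1.90 ± 0.23), PSMB10 (1.41 ± 0.27), PSMB5 (1.16 ± 0.25), PSMF1 (1.03 ± 0.24) and PSMG1 (-0.71 ± 0.22) were among them.

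Of 30 other genes of the ubiquitin-proteasome system, all of them tested, 3 rose and 3 fell in HepG2 cells and 1 rose in Ls174 cells at the study's thresholds, against 22.2% and 12% of all genes. Without HepG2 control 2, 7 were called in HepG2 cells, against 24.2% of all genes in that fit. Without Ls174 control 1, 0 were called in Ls174 cells, against 15.6%. ZFAND5, which binds ubiquitin and stimulates the proteasome, rose in HepG2 cells from 61.7, 26.9 and 50.4 CPM to 191, 156 and 151 CPM, with a log2 fold change of 1.83 ± 0.37 and an adjusted p of 0.0277. It was the only gene of this list with an adjusted p under 0.05, and without HepG2 control 2 its log2 fold change was 1.58 ± 0.25. ZFAND2A, a heat-shock gene whose product binds the proteasome, had log2 fold changes of 0.775 ± 0.328 (p of 0.0402) in HepG2 and 1.19 ± 0.52 (p of 0.0479) in Ls174 cells, there at 1.63 to 3.01 CPM in control and 4.62 to 5.34 CPM in HME libraries. UBQLN1, a shuttle of ubiquitinated proteins, rose in HepG2 cells by 0.79 ± 0.32 (p of 0.0325).

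DDI2 fell in HepG2 cells from 56.4, 102 and 33.3 CPM to 17.7, 21.0 and 19.7 CPM, with a log2 fold change of -1.71 ± 0.42, a p of 0.00248 and an adjusted p of 0.059. Without HepG2 control 2 it was -1.20 ± 0.29 with an adjusted p of 0.0364. UFD1L, a cofactor of the segregase VCP, fell by -0.96 ± 0.31 (p of 0.0122) and PAAF1, an assembly factor of the 19S base, by -1.12 ± 0.40 (p of 0.0196). NFE2L1 itself had log2 fold changes of -0.30 ± 0.33 in HepG2 and -0.53 ± 0.27 in Ls174 cells. POMP, the maturation factor of the core, had 333, 337 and 371 CPM in HepG2 control and 450.1, 543 and 485 CPM in HepG2 HME libraries. In Ls174 cells it had 607, 503 and 544 CPM in control and 686, 732 and 692 CPM in HME libraries. The groups of POMP did not overlap in either line, and neither change passed (0.51 ± 0.29, p of 0.11, and 0.35 ± 0.18, p of 0.0908).

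Of 12 genes of antigen presentation and the interferon gamma response, 10 were tested in HepG2 cells, of which 1 rose and 2 fell, and 8 in Ls174 cells, of which 1 fell, against 22.2% and 12% of all genes. Without HepG2 control 2, 1 of 10 was called in HepG2 cells (GBP2, 1.35 ± 0.53), against 24.2% of all genes in that fit. Without Ls174 control 1, 3 of 8 were called in Ls174 cells, against 15.6%. These were TAPBP, TAP2 (-0.90 ± 0.24, adjusted p of 0.0308) and ERAP1 (-1.27 ± 0.49, p of 0.0201, adjusted p of 0.128), all downward. TAPBP, which loads peptides onto MHC class I, passed downward in both lines, in HepG2 cells only with control 2. It had 89.9, 301 and 119 CPM in HepG2 control and 101, 70.8 and 73.0 CPM in HepG2 HME libraries (-1.05 ± 0.46, p of 0.0463), where the groups overlapped. Without HepG2 control 2 the log2 fold change was -0.34 ± 0.26 with a p of 0.219. In Ls174 cells it had 96.3, 53.2 and 56.3 CPM in control and 21.7, 32.7 and 30.2 CPM in HME libraries (-1.27 ± 0.30, p of 0.00229, adjusted p of 0.101), and without Ls174 control 1 the log2 fold change was -0.95 ± 0.20 with an adjusted p of 0.00671. ERAP2, which trims peptides, had -2.24 ± 0.78 in HepG2 cells (p of 0.0169) and -0.83 ± 0.49 (p of 0.122) without control 2. GBP2 rose in HepG2 cells from at most 7.97 CPM to 9.83 to 14.0 CPM (1.76 ± 0.75, p of 0.0422). B2M, the light chain of MHC class I, had log2 fold changes of 0.43 ± 0.33 in HepG2 and -0.14 ± 0.20 in Ls174 cells.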

How the data were processed

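RNA of 12 libraries (3 per group) was measured by 3′ sequencing. Per the study's methods and notes, the authors prepared QuantSeq libraries, sequenced them on an Ion Proton, aligned the reads with Hisat2 to hg19 (the processing notes also list Bowtie2 and Trimmomatic) and analysed them with metaseqR2. The deposited values are raw counts per 3′ region, without normalization. The treatment of multiply aligned reads and of strand is not given in the sources used here. Of 558 opposite-strand regions inside a longer region of another gene, 151 had more counts than the longer region, against 22 of 555 on the same strand.

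Regions were summed per gene. Groups came from sample titles. Each line was fitted by itself (3 against 3) with edgeR 4.0.16 (TMM, filterByExpr, quasi-likelihood F test, Benjamini-Hochberg adjustment over all genes tested). The interaction used all 12 libraries and the untreated comparison the 6 controls. SE were derived from the test statistic, and all p values are two-sided. Changes were called at the study's thresholds (p under 0.05, log2 fold change beyond 0.58) and at an adjusted p under 0.05. No replicates agreed within counting noise.

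Values within a line are CPM scaled by TMM over its 6 libraries, and values across lines over all 12. By rule, per-library values were given for members past either threshold in a line or at an adjusted p under 0.05 in the interaction, and for PSMB5 to PSMB10. Of the other lists, genes at an adjusted p under 0.05 or the 3 with the lowest p per direction and line were named, with NFE2L1, DDI2 and POMP. Further genes (PSME1, PSME4, PSMA3, PSMC1, PSMD8, PSMD14, PSMG1, B2M, TAP2 and ERAP1) were chosen after their values were seen. Members and lists were chosen with earlier results of these data known. The procedure was tested on simulated data. Alternatives were DESeq2 1.42.0, edgeR's exact test, other scalings and filters, a replicate block, 1 fit of all libraries, shared or minor regions left out, and each library left out. R 4.3.3, Python 3.11.15, pandas 2.3.3 and matplotlib 3.10.9 were used. The proteome was not analysed here.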

Additional observations from a re-analysis of the deposited data

How the results depend on the processing

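No called change turned its direction under any alternative run. In HepG2 cells, 1 member had an adjusted p under 0.05 with DESeq2, with the exact test, with 1 fit of all 12 libraries and without the filter on low counts, and 0 to 1 when a library was left out. These are 2.13 to 2.17% of the members, against 9.11%, 10.04%, 6.19% and 5.75% of all genes in these fits. With a library left out it was 0 to 2.17%, against 0.793 to 7.74%. The members called were 2 with 1 fit of 12, with scaling by library size only and with a minimum of 10 counts, and 1 to 4 with a library left out (3 without control 1, 4 without control 2). These are 4.35%, 4.35% and 4.65% of the members, against 23.5%, 22.8% and 21.9% of all genes. With a library left out it was 2.17 to 8.70%, against 14.5 to 24.2%. Scaling by library size moved the median of the members to -0.19 and that of all genes to -0.20. In Ls174 cells, DESeq2 gave 2 members at an adjusted p under 0.05 (4.35%, against 3.83% of all genes). With a library left out, 0 to 5 were found (0 to 10.9%, against 0 to 8.39%). The members called were 2 with library size only, 8 without a filter and 2 with shared regions left out. These are 4.35%, 17.39% and 4.65% of the members, against 11.97%, 10.44% and 11.54% of all genes. With a library left out, 2 to 8 were called (8 without control 3, 2 without HME 2 or HME 3), with medians of 0.18 to 0.28. These are 4.35 to 17.39%, against 7.15 to 15.6% of all genes. Without control 3 it was 17.39%, against 14.66%. For the interaction, library size gave 6 called members (median -0.36), upper-quartile scaling 5, a minimum of 10 counts 5 and both outlying controls left out 7 (chosen after seeing the data). These are 13.0%, 10.9%, 11.6% and 15.2% of the members, against 12.9%, 13.7%, 15.1% and 18.9% of all genes. Leaving out a library gave 2 to 7 (7 without HepG2 control 2, 5 without HepG2 control 1), with medians of -0.38 to -0.24. These are 4.35 to 15.2%, against 9.88 to 16.0% of all genes. At an adjusted p under 0.05 there was 1 member without a filter and 1 with both outlying controls left out (2.13% and 2.17%, against 1.34% and 3.25%). For untreated cells, the median of the members changed sign with library size, from 0.16 to -0.11, and that of all genes from 0.04 to -0.17. With upper-quartile scaling the medians were 0.029 for the members and -0.069 for all genes. With a library left out they were 0.013 to 0.36 and 0.004 to 0.11. Between untreated lines, 3 members had an adjusted p under 0.05 with upper-quartile scaling and 3 without a filter. There were 2 with a minimum of 10 counts and 3 without shared regions. In this order these are 6.52%, 6.38%, 4.65% and 7.14% of the members, against 23.75%, 16.97%, 11.97% and 22.93% of all genes. Without both outlying controls there were 16 (34.8%, against 43.98%). With a library left out there were 1 to 6 (2.17 to 13.0%, against 17.3 to 26.2%). The members called were 16 without both outlying controls (34.8%, against 49.7%). With a library left out, 5 to 13 were called (5 without Ls174 control 2, 6 without HepG2 control 1 or 3). These are 10.9 to 28.3%, against 28.5 to 38.4% of all genes.

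With the replicate number as a block, 1 member was called in HepG2 and 6 in Ls174 cells, 2 in the interaction and 4 between untreated lines, of which 1 had an adjusted p under 0.05. These are 2.17%, 13.0%, 4.35% and 8.70% of the members called, against 18.3%, 10.0%, 10.3% and 27.0% of all genes. Between untreated lines, 15.9% of all genes had an adjusted p under 0.05 in that fit. Deviations of log CPM from the group mean were correlated between control and HME libraries. For the same number, r was -0.15, 0.07 and -0.12 in HepG2 and -0.04, 0.01 and -0.06 in Ls174 cells. For different numbers it was -0.15 to 0.26 in HepG2 and -0.06 to 0.07 in Ls174 cells. With 3 libraries per group, these values cannot settle whether the numbers pair the libraries. The cause of these changes was not tested. At 6 to 23 counts per library, depth limits PSMB9 most.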

Other observations

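PSMB3, a structural beta subunit, had 154 CPM in HepG2 HME 1 and 50.5 and 57.3 CPM in the other HepG2 HME libraries, and 185 CPM in Ls174 HME 1 against 86.2 and 100.3 CPM in the others. PSMC3, an ATPase of the base, had 177 CPM in HepG2 HME 2 and 86.8 and 58.4 CPM in HepG2 HME 1 and 3. Both were chosen after their values were seen.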
